A study of Homo sapiens with 6 samples.

Results

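The 10 genes described here are genes of lipid handling, given by their RNA levels in U251 cells, a human glioma line. They are LPL, VLDLR and LRP8, which serve the uptake of lipoprotein lipid, SOAT1 and NCEH1, which make and split cholesterol esters, ABCA1 and ABCG1, which export sterol, the liver X receptor (LXR) genes NR1H2 and NR1H3, and the LXR target MYLIP. Members were all probe sets whose Entrez field in the authors' comparison table held the identifier of 1 of these genes and no other. This gave 27 of the 49395 probe sets and 10 of the 18712 named genes, and all 10 genes were found. No probe set was shared between a member and another gene.

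The cells carried either a lentiviral negative control hairpin, titled NC in the labels and called shCtrl here, or a lentiviral hairpin against CPVL, titled KD and called shCPVL here. The CPVL product is a serine carboxypeptidase. Total RNA of 3 samples per group was read, 1 array each, and this number limits the precision. Whether replicates came from separate cultures is not stated in the labels, so the errors cover the scatter of the 6 arrays alone, which could be technical. The labels give neither the hairpin sequences nor how many clones were kept, and name no other treatment.

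Lipoprotein lipase splits the triglyceride of circulating or secreted lipoprotein particles, and receptors of the lipoprotein receptor family take the remnants into the cell. Inside the cell, sterol is stored as esters by SOAT1 and released from them by hydrolases such as NCEH1. When sterol is in excess, its oxidised forms activate the LXRs, which switch on the exporters ABCA1 and ABCG1 and the ubiquitin ligase MYLIP, also called IDOL, which directs VLDLR and LRP8, among other receptors, to degradation. In the brain, glial cells load apolipoprotein E particles through the ABC exporters, and neurons take such particles up through the same receptor family.

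The members were chosen with their difference between the groups known. Values of members are therefore a description and carry no p-value, and a member is named as called only to place it beside the share of all genes called in the same fit (limma over 18712 genes, Benjamini-Hochberg adjusted p under 0.05). All values are log2 RMA values. RMA makes the distributions of the arrays equal, so each difference, always shCPVL minus shCtrl, is relative to the bulk of probe sets on the array. Each gene is given by its brightest probe set, and the others are compared with it.

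Promoter windows of 8 members were found in the RefSeq table for GRCh38.p14, each of 250 bases before and 50 bases after a start site. LPL and ABCG1 had no entry. The windows of 3 members with lower signal in shCPVL are shown, since they differ in the core elements they hold. That of ABCA1 (chr9:104928106-104928405, minus strand) carries in capitals the direct repeat known as its LXR element, read here on the opposite strand. That of NCEH1 (chr3:172711018-172711317, minus strand) carries in capitals a CCAAT box on the opposite strand and a TATA box. That of LRP8 (chr1:53328021-53328320, minus strand) carries in capitals 5 GC boxes. All are printed 5′ to 3′ in the sense of the gene.
ABCA1: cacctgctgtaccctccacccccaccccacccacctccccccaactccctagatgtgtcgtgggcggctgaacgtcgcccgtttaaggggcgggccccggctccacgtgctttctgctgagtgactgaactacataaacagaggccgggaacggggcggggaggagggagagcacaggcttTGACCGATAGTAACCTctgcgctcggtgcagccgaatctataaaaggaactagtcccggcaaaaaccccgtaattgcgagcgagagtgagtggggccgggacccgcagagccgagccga
NCEH1: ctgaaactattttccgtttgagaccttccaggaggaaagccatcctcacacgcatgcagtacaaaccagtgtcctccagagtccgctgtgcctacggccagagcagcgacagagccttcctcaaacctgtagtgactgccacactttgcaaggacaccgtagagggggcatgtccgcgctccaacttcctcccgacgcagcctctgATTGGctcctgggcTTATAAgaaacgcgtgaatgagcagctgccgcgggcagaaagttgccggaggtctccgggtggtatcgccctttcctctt
LRP8: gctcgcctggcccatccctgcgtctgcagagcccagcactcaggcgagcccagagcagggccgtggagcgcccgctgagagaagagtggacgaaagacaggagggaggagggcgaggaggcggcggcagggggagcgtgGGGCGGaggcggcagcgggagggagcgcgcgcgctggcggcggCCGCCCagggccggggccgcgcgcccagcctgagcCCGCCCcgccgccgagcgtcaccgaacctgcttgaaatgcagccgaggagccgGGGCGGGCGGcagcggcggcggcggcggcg

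Each motif was searched on both strands. A loose form of the LXR direct repeat, whose letters were set after the known ABCA1 element so that this match is by construction, lay from base -69 to base -54 before the ABCA1 start and was held by 0.094% of the 35116 windows in the table. The canonical LXR direct repeat was in no member window and in 0.0199% of all windows. The sterol regulatory element TCACNCCAC, the type of site that SREBP factors bind, was in no member window either and in 1.13% of all windows. CCAAT was held by windows of 4 of the 8 members and 34.6% of all windows, TATAA by 2 of the 8 and 20.4%, GGGCGG by 7 of the 8 and 45.0%, and the E-box CACGTG by ABCA1 among the members and 7.26% of all windows. The 8 members have 11 windows, and a member counts where any of its windows holds the motif. The shares are per window, so these counts and shares are in unlike units. On the NCEH1 window TATAA was found on both strands, the matches overlapping in 1 run, and the last 2 GC boxes of LRP8 overlap. The GC content of the windows shown was 62.7% for ABCA1, 57.0% for NCEH1 and 78.3% for LRP8, beside a median of 58.7% over all windows. These matches describe letters in a window and were not tested against the RNA values.

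The uptake and ester hydrolysis genes LPL, NCEH1 and LRP8 were lower in every shCPVL array than in any shCtrl array, and their group means differed by 1.91-fold to 2.82-fold, while VLDLR, a close relative of LRP8, differed by 0.05 on the log2 scale. The efflux gene ABCA1 and the receptor gene NR1H2 were lower by small amounts, and MYLIP was slightly higher. By the fit over all genes, 6 of the 10 members were called, 5 lower and 1 higher, where 20.1% of all genes were called, 11.6% lower and 8.45% higher. With a fold of at least 1.5, 3 members were called lower and 0 higher, where 1.29% and 1.22% of all genes were. The groups did not overlap in 7 members, 6 lower and 1 higher, where they did not in 35.9% of all genes, 19.8% lower and 16.1% higher. The median difference of the 10 members was −0.18, beside −0.01 over all genes tested. Since the members were chosen on this contrast, nothing is read from these counts. The knockdown target CPVL was at 8.27 ± 0.11 (SD, n = 3) in shCtrl and 7.28 ± 0.09 in shCPVL, which leaves 50.5% of the control signal.

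**Figure D1:**
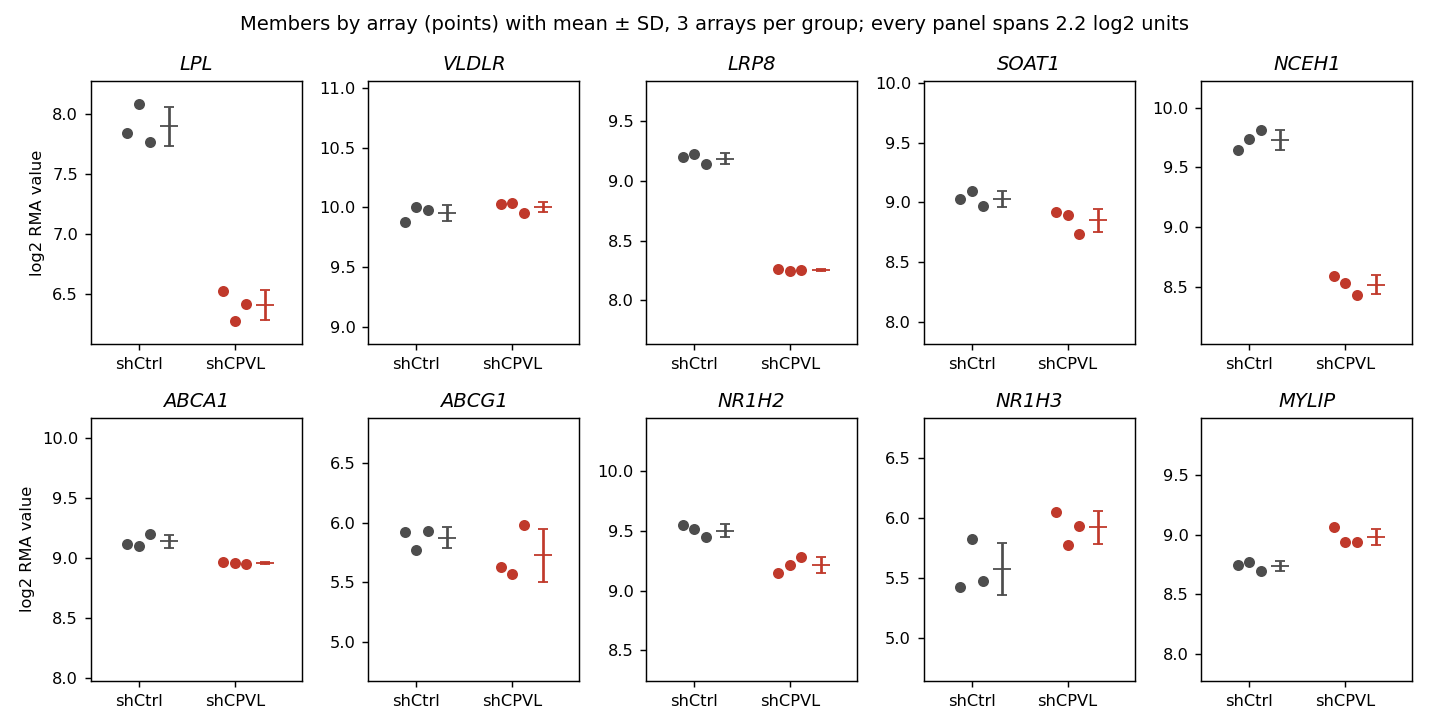
Log2 RMA value of each member on each array, with mean ± SD of 3 arrays beside the points; shCtrl is grey, shCPVL red, and every panel spans 2.2 log2 units. The groups lie clearly apart for LPL, NCEH1 and LRP8, narrowly apart for SOAT1, ABCA1, NR1H2 and MYLIP, and overlap for VLDLR, ABCG1 and NR1H3.

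LPL encodes lipoprotein lipase, the secreted enzyme that frees fatty acids from lipoprotein triglyceride. The authors' table aligns it to chromosome 8 from 19796283 to 19824770 on the plus strand, and the build of its alignments is not named in the sources used here. Its brightest probe set read 7.85, 8.08 and 7.77 in shCtrl and 6.53, 6.27 and 6.41 in shCPVL. The lowest control array thus stood more than 1 log2 unit above the highest knockdown array. The difference was −1.49 (SE 0.10), a 2.82-fold lower signal that leaves 35.5% of the control, and it was the lowest of all 18712 genes. A second probe set of LPL read 7.52, 7.48 and 7.38 in shCtrl and 5.89, 6.14 and 5.89 in shCPVL, again −1.49 (SE 0.08). The third read 6.87, 6.81 and 6.74 against 5.99, 6.09 and 6.06, a smaller difference of −0.76 (SE 0.06). All 3 probe sets kept the groups apart, and the one dimmest in shCtrl gave the smallest difference. With the mean of the probe sets LPL differed by −1.25.

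LRP8 and VLDLR encode sister receptors, apolipoprotein E receptor 2 and the very low density lipoprotein receptor, which bind apolipoprotein E particles and the neuronal guidance protein reelin. The deposited alignments place LRP8 on the minus strand of chromosome 1, 53711217 to 53793737, and VLDLR on the plus strand of chromosome 9, 2621756 to 2654483. LRP8 read 9.20, 9.22 and 9.14 in shCtrl and 8.26, 8.25 and 8.25 in shCPVL. The difference was −0.93 (SE 0.05), leaving 52.3% of the control signal, and the shCPVL arrays lay within an SD of 0.01 of each other. The other LRP8 probe set read 8.0, 8.11 and 8.10 against 7.20, 7.30 and 7.20, a difference of −0.83 (SE 0.06). VLDLR, read by a single probe set, was at 9.88, 10 and 9.98 in shCtrl and 10.03, 10.03 and 9.95 in shCPVL. Its groups overlapped, and the difference was 0.05 (SE 0.05), so the sister receptors were unlike in this contrast.

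SOAT1, the acyltransferase of the endoplasmic reticulum that esterifies cholesterol, and NCEH1, the neutral cholesterol ester hydrolase that splits such esters, stand on opposite sides of ester turnover. NCEH1 lies on the minus strand of chromosome 3 in the deposited alignments, 172348038 to 172429008. It read 9.65, 9.73 and 9.81 in shCtrl and 8.60, 8.53 and 8.44 in shCPVL. No array of one group came near the other, and the difference of −1.21 (SE 0.06) left 43.2% of the control signal. NCEH1 stood at place 11 and LRP8 at place 59 from the lowest difference of all genes. The other NCEH1 probe sets gave −1.20 (9.35, 9.44 and 9.32 against 8.32, 8.18 and 8.02) and −1.04 (8.17, 8.18 and 7.99 against 7.28, 6.93 and 7.01). All 3 NCEH1 probe sets thus showed nearly the same loss.

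SOAT1 (chromosome 1, 179262931 to 179324767, plus strand) gave no single answer. Its brightest probe set read 9.03, 9.09 and 8.97 in shCtrl and 8.92, 8.90 and 8.73 in shCPVL, a difference of −0.18 (SE 0.07) with groups that did not overlap. A second probe set read 8.73, 8.76 and 8.81 against 9.16, 8.97 and 8.86, a difference of 0.23 (SE 0.08), also without overlap but in the opposite direction. The third overlapped between the groups and differed by −0.01. None of the 3 was called in the main fit. By the authors' deposited FDR the brightest passed as lower (0.030) and the second as higher (0.014). As a gene, SOAT1 was called lower with an intensity trend or without the dimmest 40%. Averaged over its probe sets SOAT1 differed by 0.01, and by 0.08 with their median, so no direction is given for it.

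**Figure D2:**
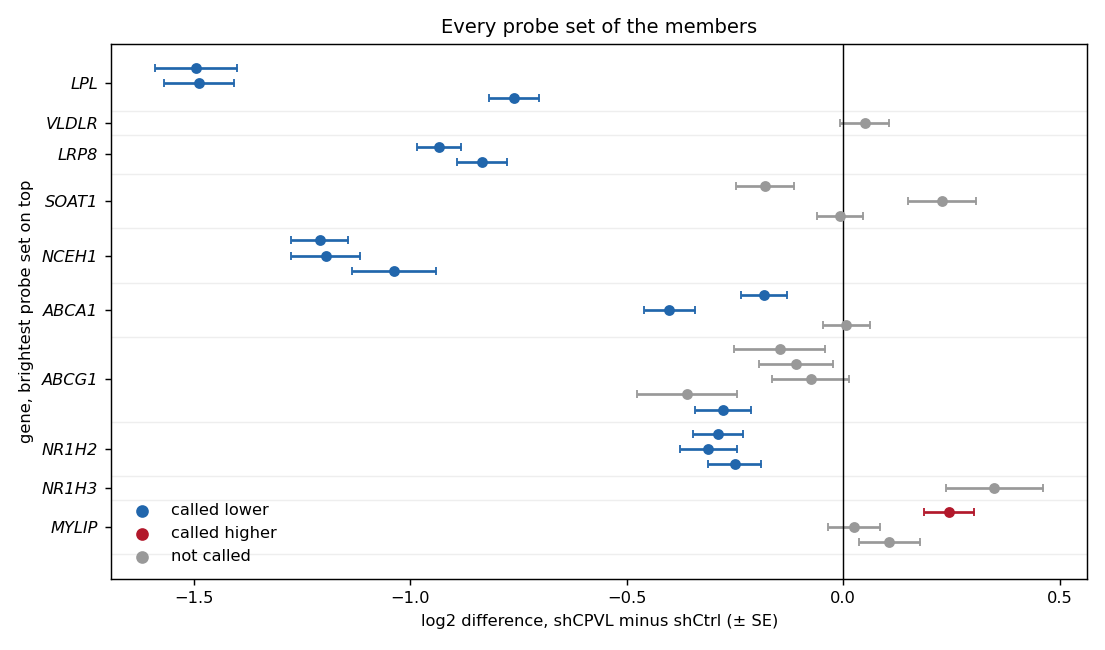
Log2 difference, shCPVL minus shCtrl, of each of the 27 member probe sets with its SE, ordered within a gene from the brightest down; blue marks probe sets called lower, red called higher, grey not called, in the fit over all probe sets. Probe sets of LPL, LRP8, NCEH1 and NR1H2 all lie on the lower side, while those of SOAT1 lie on both sides of 0.

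In the fit over all 49293 probe sets that are not array controls, 14 of the 27 member probe sets were called lower and 1 higher, where 10.6% of all probe sets were called lower and 7.93% higher. The groups did not overlap in 17 of the 27, where they did not in 35% of all probe sets. Of these 17, 15 were lower and 2 higher in shCPVL, where 19.2% of all probe sets were apart and lower and 15.7% apart and higher. Every probe set of LPL, LRP8, NCEH1 and NR1H2 was among the 14, which also held 2 of 3 for ABCA1 and 1 of 5 for ABCG1. By the FDR in the authors' deposited table, 16 of the 27 were lower and 3 higher at 0.05. The share of all probe sets that pass that FDR was not counted, so nothing is read from these counts.

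ABCA1 and ABCG1 encode the membrane transporters that hand cholesterol to apolipoprotein A1 or E and to high density particles. ABCA1 (chromosome 9, 107543282 to 107690527, minus strand) read 9.12, 9.10 and 9.20 in shCtrl and 8.96, 8.96 and 8.95 in shCPVL. The groups were apart but close, with a difference of −0.18 (SE 0.05). A dimmer ABCA1 probe set read 6.33, 6.37 and 6.25 against 5.91, 5.98 and 5.86, a larger difference of −0.40 (SE 0.06). The third ABCA1 probe set lay between 3.35 and 3.45 on all 6 arrays, below the median of the background probe sets (3.59 in shCtrl). ABCA1 was no longer called under another quantile normalization (−0.16), with a replicate block, or when any array but shCtrl replicate 2 was left out (−0.19 to −0.15).

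ABCG1 (chromosome 21, 43619798 to 43717938 across its probe sets, plus strand) was dim. Its brightest probe set read 5.92, 5.77 and 5.93 in shCtrl and 5.63, 5.57 and 5.98 in shCPVL. shCPVL replicate 3 was the highest of all 6 arrays, and the groups overlapped. The difference was −0.15 (SE 0.11) over all arrays and −0.27 without shCPVL replicate 3, where it was called, as was the mean of its probe sets (−0.19). All 5 probe sets of ABCG1 were lower on average, with differences from −0.36 to −0.08. The 4 dimmer ones read 3.81, 4.67, 4.68 and 4.86 in shCtrl on average, beside the background median of 3.59. Background probe sets rose with their GC content, from 2.71 to 11.60 on shCtrl replicate 1. Their median therefore sets no floor for a given probe set.

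NR1H2 encodes LXR beta, found in most tissues, and NR1H3 encodes LXR alpha, best known from liver, fat and macrophages. NR1H2 (chromosome 19, 50879715 to 50886241 across its probe sets, plus strand) read 9.54, 9.52 and 9.44 in shCtrl and 9.14, 9.21 and 9.28 in shCPVL. The groups did not overlap, and the difference was −0.29 (SE 0.06), a 1.22-fold lower signal. Its other probe sets gave −0.31 and −0.25, and the call held under all 15 alternatives tried, between −0.32 and −0.25. NR1H3 (chromosome 11, 47279481 to 47290583, plus strand) read 5.42, 5.82 and 5.47 in shCtrl and 6.05, 5.78 and 5.94 in shCPVL. The highest control array, replicate 2, lay above the lowest knockdown array, also replicate 2. The difference of 0.35 (SE 0.11) was not called, and without shCtrl replicate 2 it was 0.47 and called. NR1H3 was also called with an intensity trend on all 6 arrays, and the authors' deposited FDR for its probe set was 0.025. Only 1 probe set read NR1H3, and 24.5% of genes were dimmer in shCtrl.

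MYLIP (chromosome 6, 16129316 to 16148479, plus strand for 2 of its probe sets) was the only member called higher. The probe set that gave the call aligns to a short stretch from 16147995 to 16148476 at the end of the gene. It read 8.75, 8.77 and 8.69 in shCtrl and 9.06, 8.94 and 8.94 in shCPVL, a difference of 0.24 (SE 0.05) without overlap. The other MYLIP probe sets overlapped between the groups, at 0.11 and 0.03. Taking the mean of the MYLIP probe sets gave 0.13 and taking the median 0.03, and neither was called. The call came from an s_at probe set, a type that can bind several transcripts. It was also lost when x_at and s_at probe sets were left out (0.03). The same held without shCtrl replicate 1 (0.25) or shCtrl replicate 3 (0.22).

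**Figure D3:**
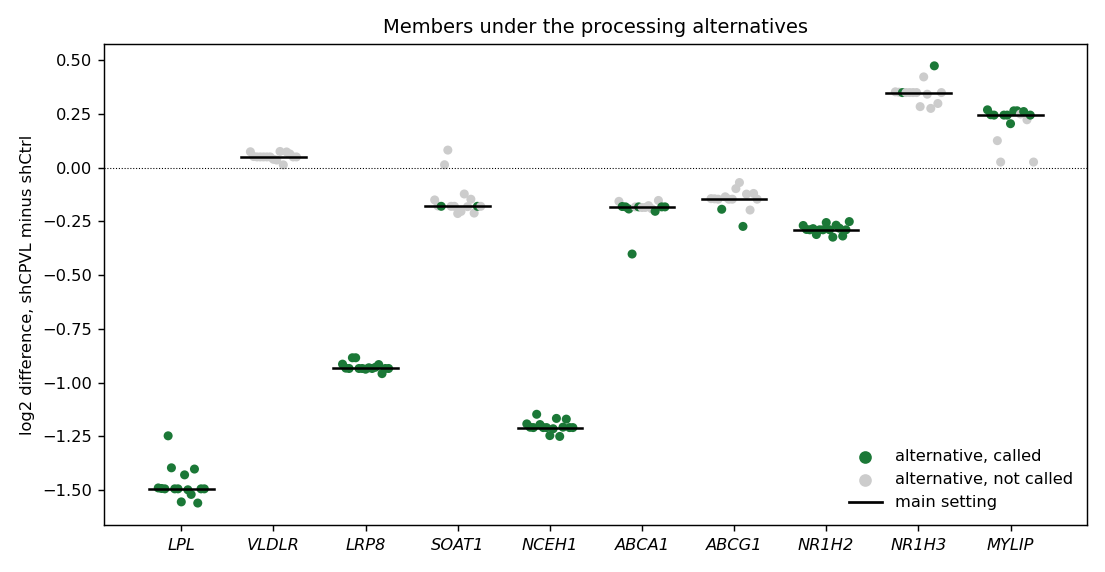
Log2 difference, shCPVL minus shCtrl, of each member in the main setting (black line) and under each processing alternative (points, green where called, grey where not). LPL, LRP8, NCEH1 and NR1H2 are called under all 15 alternatives, VLDLR under none, and SOAT1 crosses 0.

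The other genes of these pathways were taken from 10 lists with 138 genes that are not members, of which 137 were measured (CES1 was not). Of the 137, 33 fell and 9 rose, with a median difference of −0.05 beside −0.01 for all genes, where 11.6% of genes were called lower and 8.45% higher. Genes regulated by sterol through SREBP2 fell most often, and genes of lipase handling, lipoprotein receptors other than the members, efflux and LXR coregulation mostly did not pass. The lists overlap in a few genes, and p-values below are limma's, adjusted over all genes. Like the members, the lists were chosen with earlier results of these data known. These p-values therefore describe the genes named and are not independent evidence.

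Of 16 genes that handle lipoprotein lipase or are related to it, 3 fell and 0 rose, and the list median was −0.01. LIPG, the endothelial lipase gene and a relative of LPL, fell from 6.65 ± 0.01 (SD, n = 3) to 6.14 ± 0.10 (limma adjusted p = 0.00081), and by 0.26 with the mean of its probe sets. SEL1L, an adaptor of endoplasmic reticulum degradation needed for LPL to leave that compartment in mouse fat, fell by 0.41 (adjusted p = 0.00078), a call lost when its probe sets were reduced to their median (−0.14). SORT1, which encodes the sorting receptor sortilin, fell by 0.21 (adjusted p = 0.014), a call lost with the mean of its probe sets (−0.07) and without shCPVL replicate 2 (−0.21) or shCtrl replicate 1 (−0.20), while their median was 0.10. LMF1, the factor that folds lipases, was at 6.30 ± 0.02 and 6.29 ± 0.07, and the LPL inhibitor gene ANGPTL4 was at 6.66 ± 0.10 and 6.61 ± 0.10, both chosen after their values were seen.

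Of 19 lipoprotein and scavenger receptor genes other than the members, 3 fell and 3 rose, with a median of −0.05. SORL1, a sorting receptor that also binds LPL, fell from 9.06 ± 0.05 to 8.40 ± 0.07 (adjusted p = 0.00015). LRP6, a Wnt co-receptor, rose by 0.28 (adjusted p = 0.0056), but its median probe set gave −0.023, and −0.045 was found when x_at and s_at probe sets, which can bind several transcripts, were left out. LRP1B rose by 0.46 (adjusted p = 0.033) from a dim 4.33, a call lost when any array but shCPVL replicate 3 was left out.

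Reelin signalling, which VLDLR and LRP8 start, showed 2 genes higher and 0 lower of 12, with a median of 0.01. CLU, encoding clusterin or apolipoprotein J, a ligand of both receptors, rose from 10.09 ± 0.09 to 11.11 ± 0.05 (adjusted p = 2.7e-05). With the mean of its 2 probe sets CLU rose by 0.52, so the dimmer probe set differed far less. The kinase gene FYN rose by 0.19 (adjusted p = 0.031), a call lost with a replicate block and when any array but shCtrl replicate 2 was left out (adjusted p up to 0.11).

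Of 19 measured genes of sterol ester and neutral lipid turnover, 2 fell and 2 rose, with a median of −0.08. STARD4, a cytosolic sterol carrier, fell by 0.47 (adjusted p = 0.0013), and by 0.29 when x_at and s_at probe sets were left out. STARD3, a sterol carrier of late endosomes, fell by 0.29 (adjusted p = 0.014), a call lost with the mean of its probe sets (−0.05) and without shCPVL replicate 2 or shCtrl replicate 1 (−0.27 in both). LIPA, the lysosomal acid lipase that splits esters taken up by endocytosis, rose by 0.19 (adjusted p = 0.027), and PLIN3, a lipid droplet coat gene, rose by 0.20 (adjusted p = 0.040). Both of these calls were lost when any array but shCPVL replicate 3 was left out. NCEH1 at −1.21 and LIPA at 0.19 are the neutral and the acid ester hydrolase. SOAT2, the second acyltransferase, was at 6.11 ± 0.03 and 6.02 ± 0.14 and did not pass (adjusted p = 0.45); it was chosen after its values were seen.

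Among LXR targets outside the members, 6 of 16 fell and 1 rose, with a median of −0.03. SREBF1, the gene of the lipogenic factor SREBP1, fell from 10.04 ± 0.04 to 9.23 ± 0.03 (adjusted p = 3.0e-05), a call lost when its probe sets were reduced to their median (−0.22). SCD, the stearoyl-CoA desaturase gene, fell from 12.45 ± 0.02 to 11.68 ± 0.05 (adjusted p = 4.0e-05) and by 1.23 in the median of its probe sets. LPCAT3, which places polyunsaturated acyl chains into phospholipid, fell by 0.55 (adjusted p = 0.00056), or 0.35 with the mean of its probe sets. The fatty acid synthase gene FASN fell by 0.40 (adjusted p = 0.0039). Several of these are also SREBP targets, and LXR targets such as APOE (7.0 ± 0.05 and 6.98 ± 0.02, chosen after its values were seen) did not pass.

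**Figure D4:**
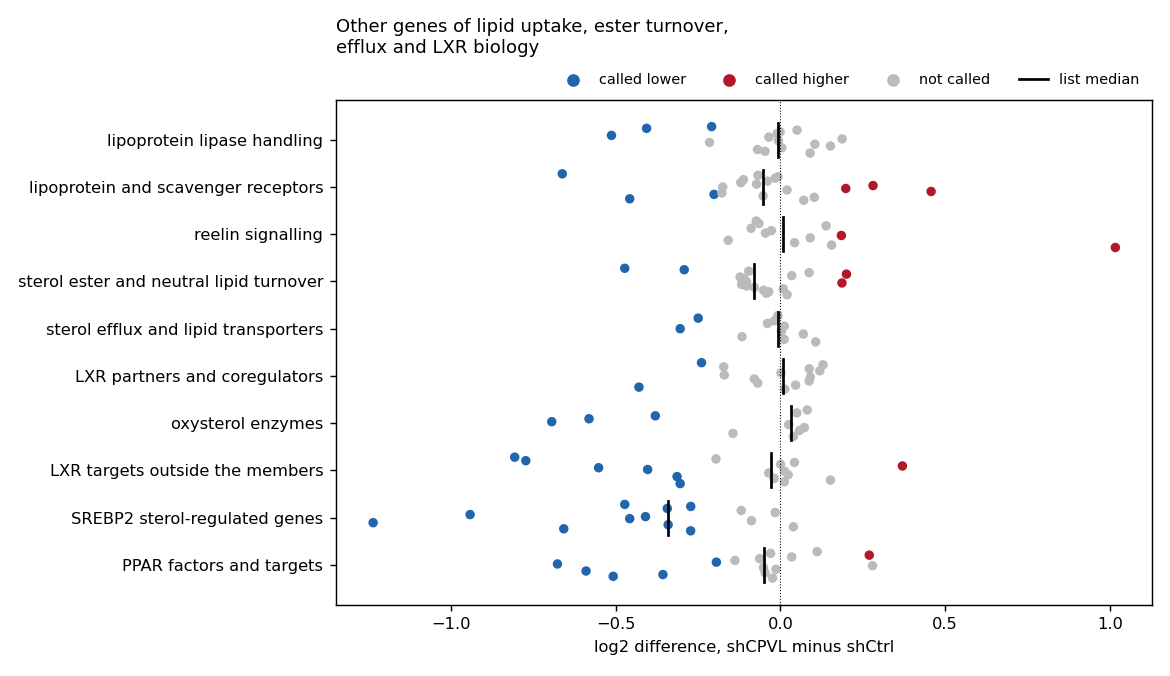
Log2 difference, shCPVL minus shCtrl, of each measured gene of the 10 pathway lists, with blue called lower, red called higher, grey not called, and a black line at each list's median. The SREBP2 list has its median at −0.34, and every other list has its median between −0.08 and 0.03.

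The partners of the LXRs showed 2 of 14 genes lower and 0 higher, with a median of 0.01. HDAC3, the deacetylase of the corepressor complex, fell by 0.43 (adjusted p = 0.0048), and TBL1XR1, another part of that complex, by 0.24 (adjusted p = 0.0071). The obligate LXR partners RXRA and RXRB differed by 0.12 and 0.09 and did not pass (adjusted p = 0.19 and 0.35), chosen after their values were seen. Of 10 enzymes that make or remove oxysterols or their precursors, 3 fell and 0 rose. Among them were the cholesterol synthesis genes DHCR7 (−0.58, adjusted p = 0.00029) and EBP (−0.38, adjusted p = 0.0022). The hydroxylase genes that make the LXR ligands did not pass, among them CYP27A1 (0.06) and the dim CH25H (0.04, at 4.18 in shCtrl), chosen after their values were seen. Of 11 efflux and lipid transporter genes 2 fell and 0 rose. The caveolin gene CAV1 fell by 0.25 (adjusted p = 0.0055). ABCG5 fell by 0.30 (adjusted p = 0.017) from 3.87, close to the background median. The ABCG5 call was lost without shCPVL replicate 1 or shCPVL replicate 2.

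Of 14 genes controlled by sterol through SREBP2, 10 fell and 0 rose, with a median of −0.34. INSIG1, which retains the SREBP complex in the endoplasmic reticulum, fell from 10.58 ± 0.07 to 9.35 ± 0.05 (adjusted p = 6.0e-06), a change close in size to that of NCEH1. MSMO1, a demethylating enzyme of cholesterol synthesis, fell by 0.94 (adjusted p = 5.7e-05). STARD4, named above, belongs to this list too. The fall of cholesterol synthesis genes was known from earlier results of these data.

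PPAR factors also control LPL in several tissues. Of 16 PPAR genes and targets 5 fell and 1 rose, with a median of −0.05. FABP7, the brain fatty acid binding protein, fell by 0.68 (adjusted p = 4.7e-05). With the mean of its 2 probe sets FABP7 fell by 0.38, so the dimmer probe set differed far less. CPT1A, which carries fatty acids into mitochondria, fell by 0.59 (adjusted p = 0.00027). The acyl-CoA synthetase genes ACSL1 and ACSL3 fell by 0.51 (adjusted p = 0.0018) and 0.36 (adjusted p = 0.0019), the ACSL1 call being lost when x_at and s_at probe sets were left out (−0.18). The 1 gene that rose was PPARA itself (0.27, adjusted p = 0.0086), named after its values were seen, while PPARG read 3.71 ± 0.17 in shCtrl, near the background median.

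The genes whose values over the 6 arrays ran most like those of LPL were BTBD6, the Wnt transcription factor gene LEF1 and CENPU, a centromere gene, with Pearson r of 0.999 each. LEF1 went from 7.46 ± 0.13 to 6.28 ± 0.08, a difference of −1.18, whereas BTBD6 and CENPU differed by −0.40 and −0.36. For NCEH1 they were TUBGCP3, MLLT11 and the proteasome gene PSMA4, with r of 0.9995, 0.999 and 0.999 and differences of −1.02, −0.15 and −0.84. The arrays form 2 separate groups, so such an r mainly restates a difference between groups that is large beside the spread within them, and no relation is read from it.

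The cells were checked against markers, and other signals that moved between the groups are given here. The 9 astroglial and glioma markers read from 7.47 (S100B) to 14.24 (VIM) in shCtrl on average, with GFAP at 10.17. Of these 9 markers 3 fell, namely GFAP, the astrocyte filament gene, (−1.01, adjusted p = 4.4e-05), SLC1A3 (−0.56, adjusted p = 0.0015) and SOX9 (−0.38, adjusted p = 0.0013), and their part in the lower LPL, NCEH1 and LRP8 signal was not tested. Of the markers of other cell types, 0 of 9 macrophage and microglia markers, 0 of 7 adipocyte markers and 0 of 6 endothelial markers were called, with summed log2 values of 51.95 to 52.99, 40.65 to 41.78 and 40.68 to 40.77 on the shCtrl arrays and 51.53 to 53.27, 40.69 to 41.59 and 40.42 to 41.10 on the shCPVL arrays. The markers farthest from 0 in each list were CD68 (0.23, adjusted p = 0.11), CX3CR1 (−0.09), ADIPOQ (0.23, adjusted p = 0.052), CFD (−0.22), CLDN5 (−0.06) and KDR (−0.05). The groups did not overlap for CD68 and ADIPOQ, and each passed under 4 alternatives, among them the replicate block. ADIPOQ differed by 0.11 with the mean of its probe sets, 0.065 with their median and −0.026 when x_at and s_at probe sets were left out. In shCtrl the macrophage and microglia markers read from 3.41 (PTPRC) to 7.57 (TYROBP), the adipocyte markers from 4.39 (FABP4) to 7.55 (LIPE) and the endothelial markers from 4.60 (CLDN5) to 8.37 (KDR). The samples are of the U251 line, and the part of these other cell types in the results was not tested. In bulk RNA, fewer cells of a type and less RNA per cell cannot be told apart.

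The 18 probe sets for control RNA added before hybridisation were higher in shCPVL by 0.31 on average, between 0.16 and 0.41. The 27 poly-A spike probe sets were higher by 0.13 on average, between −0.08 and 0.31. The part of these shifts in the differences above was not tested. The log2 signal of the 3′ minus the 5′ control probe set, a sign of RNA integrity, ran from −0.07 to −0.03 in shCtrl and −0.08 to −0.05 in shCPVL for GAPDH, and from 0.24 to 0.33 and 0.28 to 0.32 for ACTB. Array medians lay between 6.85 and 6.87, and Pearson r across probe sets was 0.997 to 0.999 within a group. Between the groups it was 0.992 to 0.993.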

How the data were processed

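Total RNA of 6 U251 samples, 3 per group, was hybridised to arrays after biotin labelling with a 3′ in vitro transcription kit, per the labels' protocols. The deposited log2 values were made by the authors with RMA, per the submitters' processing notes, which corrects background, equalises the distributions and summarises probes; neither its version nor a genome build is given in the sources used here. Per the file headers, the authors also deposited a comparison of KD with NC that lists for each probe set a p-value, an FDR, the log2 fold, the linear ratio and a score (a fold with a sign). The log2 folds in it were the same as the group mean differences computed here.

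Symbols were assigned through the Entrez identifier in a RefSeq gene table (GRCh38.p14); 46726 of 46869 probe sets with 1 identifier received one. Of the others, 1994 had several identifiers, 430 had none and 102 were array controls. A gene's value was that of its brightest probe set over the 6 arrays, and low values were not filtered. Genes (18712) and, separately, probe sets (49293) were fitted with limma 3.58.1 in R 4.3.3 (lmFit, eBayes, two-sided, Benjamini-Hochberg over all of them), and the script was tested on simulated data. CPVL gave p = 0.1 in a two-sided exact permutation test, the smallest that 3 against 3 arrays allow.

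The members and lists were chosen with earlier results of these data known. Named genes are all members, CPVL, up to 4 called genes per list with the largest absolute difference (up to 2 where none was called), and the 3 genes most like LPL and NCEH1 by Pearson r over the arrays. Some genes that this rule names are not reported here. Alternatives were another quantile normalization, median centring, a block for replicate number, an intensity trend or robust variances in eBayes, the mean or median of probe sets, no x_at or s_at probe sets, no genes of the dimmest 40%, each array left out and, for probe sets, the authors' FDR.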

Additional observations from a re-analysis of the deposited data

Results flagged for a closer look

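The 18 hybridisation control probe sets, which enter no comparison of genes, read 0.307 higher on average in shCPVL than in shCtrl on the log2 scale. The groups of 3 arrays are too small for a test of single outlying arrays.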

How the results depend on the processing

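The calls of LPL (−1.56 to −1.25), NCEH1 (−1.25 to −1.15), LRP8 (−0.96 to −0.88) and NR1H2 (−0.32 to −0.25) held under all 15 alternatives, and CPVL stayed between −1.04 and −0.93. Members called lower numbered 4 to 6. Members called higher, 1 in the main setting, were 2 with an intensity trend, 0 with the mean or the median of probe sets or without x_at and s_at probe sets, and 0 to 2 when arrays were left out. Member probe sets called higher, 1 in the main setting, were 2 after another quantile normalization or without the dimmest 40%, 3 with an intensity trend or by the authors' deposited FDR, and 0 to 2 when arrays were left out. With arrays left out, 949 to 1495 genes were called higher and 1431 to 1924 lower (1581 and 2176 in the main setting; 949 and 1431 without shCPVL replicate 2, 988 and 1450 without shCtrl replicate 1), and 4 to 9 related genes were called higher (9 in the main setting). Direction turned for LRP6 with the median of its probe sets (−0.023) or without x_at and s_at probe sets (−0.045), and for SORT1 with the median (0.10); the cause was not tested. With the replicate block, 4 members were called lower against 5, ABCA1 (−0.18) being the call lost, and FYN (0.19) and LIPA (0.19) were lost as well. Replicate numbers did not pair the arrays: over probe sets with 1 identifier, the correlations of deviations from the group means were −0.25, 0.09 and 0.22 for replicates 1, 2 and 3. Between arrays of unlike number they ran from −0.405 (shCtrl replicate 2 with shCPVL replicate 3) to 0.36 (shCtrl replicate 2 with shCPVL replicate 1). ABCG1 and NR1H3 had no value without the dimmest 40%, since they were among it. Dim signal limits what can be seen of ABCG1, NR1H3, LRP1B, ABCG5 and CH25H.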
